A study of Homo sapiens with 4 samples.

Results

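Azurophil granule proteases and granule proteins were followed through 8 genes, MPO, ELANE, CTSG, PRTN3, AZU1, SERPINB1, BPI and CAMP, taken by symbol from 27800 gene symbols. All 8 were in the table, and all 8 passed the filter on low values, a mean of at least 1 TPM over the libraries, as did 12603 symbols in total. TPM is the share of a library's transcripts, corrected for transcript length and scaled to a total of 1000000, so levels can be compared between genes. The cells were MOLM-13, a human acute myeloid leukaemia line with a KMT2A-MLLT3 fusion. Both groups received CRISPR-Cas9 by lentivirus: the control group a construct that the labels call EV, the other group sgKAT6A, a guide against the histone acetyltransferase gene KAT6A. Each group has 2 libraries. The sources used here do not describe the EV construct or the guide, and state neither the time of harvest nor whether replicates came from separate transductions. The results describe a single cell line. P-values therefore measure only the spread between these libraries, which may be technical.

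Azurophil or primary granules are the lysosome-related granules of neutrophil and monocyte precursors. Their contents are transcribed mainly at the promyelocyte stage, and the messages decline as the cell matures while the stored protein remains. MPO makes hypochlorous acid from hydrogen peroxide and chloride. ELANE, CTSG and PRTN3 encode the neutrophil serine proteases elastase, cathepsin G and proteinase 3, which are trimmed to active enzymes by cathepsin C, and AZU1 encodes azurocidin, a homologue without protease activity. SERPINB1 is a cytosolic inhibitor of these proteases, BPI binds bacterial lipopolysaccharide, and CAMP encodes the precursor of the antimicrobial peptide LL-37, a protein of the later specific granules.

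KAT6A itself was at 16.2 and 16.7 TPM in replicates 1 and 2 of EV, against 12.2 and 10.8 TPM in those of sgKAT6A (log2 difference -0.48 ± 0.13 SE, limma adjusted p = 0.784), and KAT6A protein was not measured here. sgKAT6A replicate 2 stood apart in composition, with the ribosomal RNA symbol RNA18SN5 at 339.5 TPM against 10401 to 13751 TPM in the other libraries and small nuclear RNA genes at 2.31% of its TPM against 0.103% to 0.402%. Composition also differed along the groups. Protein-coding genes held 81.2% and 81.6% of the TPM in replicates 1 and 2 of EV, against 77.9% and 78.1% in those of sgKAT6A. Of 12 defining markers of these leukaemia cells, 11 had a mean of at least 1 TPM. CD33 lay between 99.2 and 115 TPM, and KIT did not exceed 0.402 TPM. Markers of B cells summed to 1.32 to 2.95 TPM with MS4A1 at 0, and those of cytotoxic lymphocytes to 113 to 240 TPM, mostly NKG7, with GZMA and GZMK at 0. Erythroid and megakaryocyte markers summed to 304 to 568 TPM, led by HBA1, with PF4 and PPBP at 0, and fibroblast, epithelial and endothelial markers to 42.3 to 89.0 TPM, led by PECAM1.

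The 8 genes covered a wide range of levels, from a mean of 4109 TPM over the libraries for PRTN3 down to 1.99 TPM for CAMP. PRTN3 was at 6062 and 3429 TPM in replicates 1 and 2 of EV, against 4570.5 and 2376 TPM in those of sgKAT6A, replicate 1 being given first here and in every pair of values below. This placed it between rank 22 and rank 66 among protein-coding genes of a library. AZU1 and ELANE followed, then CTSG, and these 4 serine protease homologues made up 96.5% to 98.5% of the summed TPM of the 8 genes. SERPINB1 and MPO lay near each other at 49.5 to 99.1 TPM, BPI at 4.09 to 13.4 TPM and CAMP at 0.906 to 3.11 TPM. In EV the means of AZU1 (1351 ± 304 TPM, SD, n = 2) and ELANE (1051 ± 627 TPM) did not differ beyond their spread, and neither did those of SERPINB1 (72.6 ± 1.62 TPM) and MPO (62.3 ± 10.5 TPM). The order was the same in 3 libraries; in sgKAT6A replicate 2, CTSG (78.6 TPM) stood behind SERPINB1 (85.0 TPM). MPO, the gene by which myeloid blasts are usually recognised, was below ELANE, CTSG and PRTN3 in every library, with CTSG the nearest, at 78.6 against 49.5 TPM in sgKAT6A replicate 2.

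**Figure D1:**
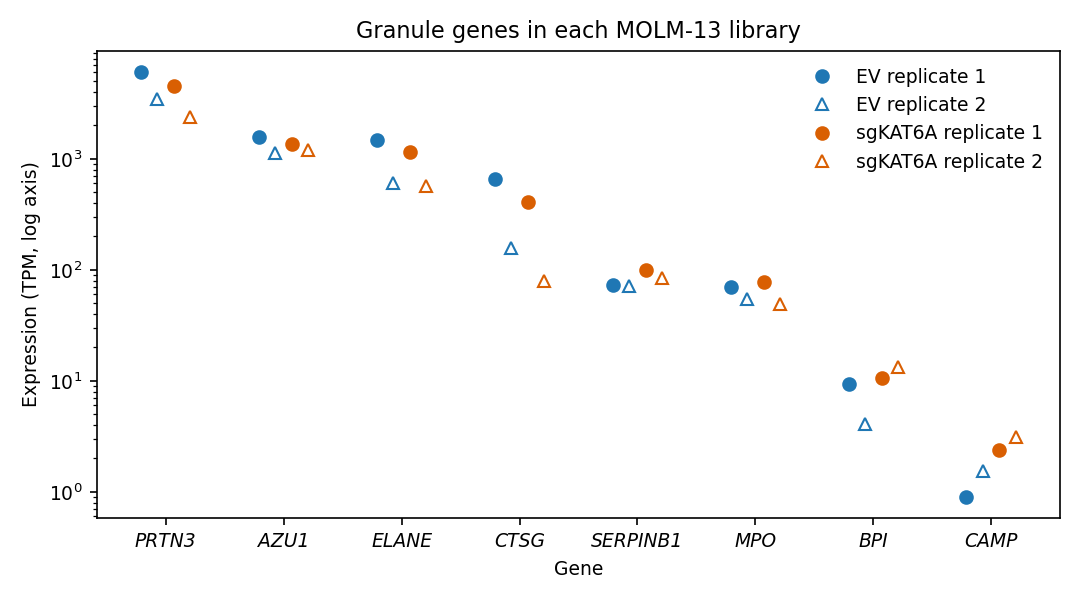
Expression of the 8 granule genes (x axis) in TPM (y axis, log scale) in each of the 4 libraries, blue for EV and orange for sgKAT6A, filled circles for replicate 1 and open triangles for replicate 2. PRTN3, ELANE and CTSG, and by less AZU1 and MPO, are lower in both replicate 2 libraries than in both replicate 1 libraries. For SERPINB1, BPI and CAMP both sgKAT6A points lie above both EV points.

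Summed over the 8 genes, granule transcripts took 0.993% and 0.546% of the TPM in EV replicates 1 and 2 and 0.770% and 0.437% in sgKAT6A replicates 1 and 2. The sum was lower in both replicate 2 libraries than in both replicate 1 libraries, and the groups overlapped. PRTN3 alone held 54.3% to 62.8% of it in every library.

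The active proteases differed more between the replicate numbers than between the groups. CTSG showed the widest range of the 8 genes, at 653 and 157 TPM in replicates 1 and 2 of EV, against 408 and 78.6 TPM in those of sgKAT6A, an 8.30-fold spread. Replicate 2 held 0.240 times the CTSG of replicate 1 in EV and 0.193 times in sgKAT6A. For ELANE, at 1494 and 607 TPM in EV, against 1162 and 564 TPM with sgKAT6A, the same ratios were 0.407 and 0.485. PRTN3 had ratios of 0.566 and 0.520. The homologue AZU1 was steadier, at 1567 and 1136 TPM in EV, against 1369.5 and 1203 TPM with sgKAT6A, with ratios of 0.725 and 0.879. MPO was also lower in replicate 2 of either group, at 69.7 and 54.8 TPM in EV, against 77.9 and 49.5 TPM with sgKAT6A.

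Drops of this size between libraries of a group were uncommon in the table. EV replicate 2 was more than 2-fold below EV replicate 1, on the log2(TPM + 1) scale used from here on, for 3 of the 8 genes (ELANE, CTSG and BPI) against 1.33% of all genes tested. The same gap between the sgKAT6A libraries was found for ELANE and CTSG against 3.05% of all genes. Of the 12603 genes, 60 dropped by more than CTSG from EV replicate 1 to EV replicate 2, and 137 did so in sgKAT6A. Lower values in replicate 2 than in replicate 1 in both groups were found for 6 of the 8 genes, all but BPI and CAMP, against 31.5% of all genes. For 6 of the 8 genes, all but SERPINB1 and CAMP, the gap between the EV libraries exceeded the fitted group difference, as for 53.0% of all genes. BPI was more than 2-fold lower in replicate 2 of EV but higher in replicate 2 of sgKAT6A. S100A9 and MMP9, genes of mature monocytes and granulocytes, were instead higher in replicate 2 of both groups. S100A9, a calcium-binding protein of mature myeloid cells, was at 198 and 689 TPM in EV, against 461 and 1103 TPM with sgKAT6A. MMP9, the gelatinase of tertiary granules, was at 1.02 and 85.1 TPM in EV, against 2.40 and 212 TPM with sgKAT6A. In the lists below that hold them, the median gap between the EV libraries was 1.12 with S100A9 and 1.44 with MMP9. Not every gene of these lists was higher in replicate 2. ORM2 and FUT4 were lower there in both groups, CYBA was lower in sgKAT6A, and MMP8 and FCGR3B were at 0. In bulk RNA a smaller number of cells with a granule program and less granule RNA per cell cannot be told apart.

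**Figure D2:**
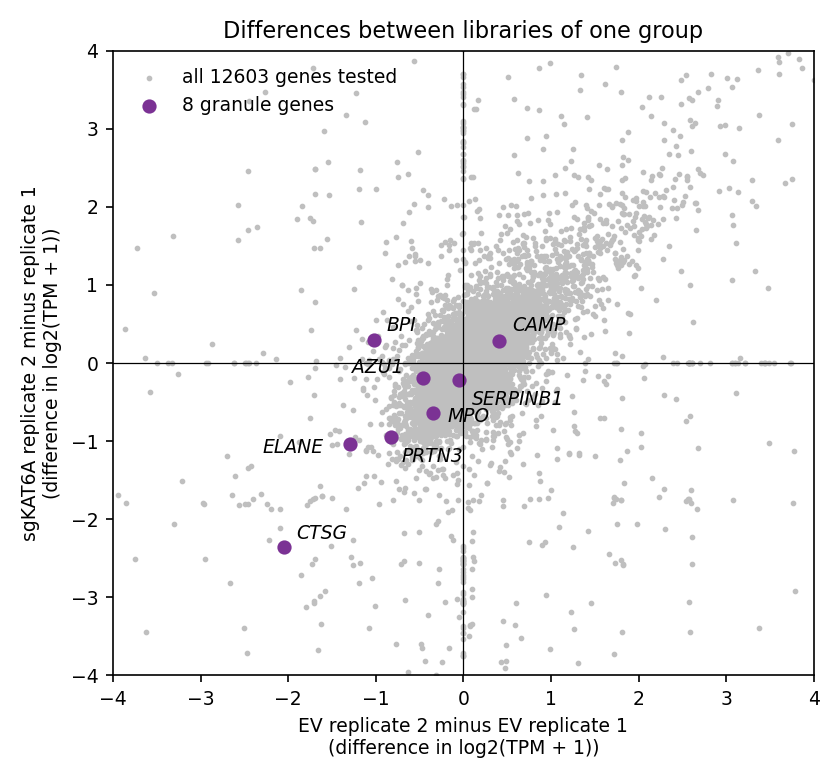
Difference between replicate 2 and replicate 1 in log2(TPM + 1), in EV (x axis) and in sgKAT6A (y axis), for all 12603 genes tested (grey; 57 lie outside the axes) and for the 8 granule genes (purple). CTSG (-2.05 and -2.36), ELANE (-1.30 and -1.04) and PRTN3 (-0.82 and -0.94) lie in the lower left, low in replicate 2 of both groups, and CAMP (0.41 and 0.28) lies on the opposite side.

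Between sgKAT6A and EV, no granule gene passed the test. With limma, 0 of the 8 genes and 0.0% of the 12603 genes passed an adjusted threshold of 0.05, and the smallest adjusted p was 0.191. At an unadjusted p under 0.05, 1 of the 8 genes (CAMP) and 3.64% of all genes were found, 459 in number. With 2 libraries on each side, the smallest two-sided p of an exact permutation test on a single gene is 0.333.

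The proteases had lower means in sgKAT6A, by amounts smaller than the gap between replicates. The ELANE mean was 863 ± 423 TPM under sgKAT6A against 1051 ± 627 TPM under EV (SD, n = 2), a log2 difference of -0.23 ± 0.60 (SE) with a 95% interval of -1.89 to 1.43. For CTSG the means were 243 ± 233 and 405 ± 351 TPM and the difference -0.83 ± 1.11, with an interval of -3.93 to 2.27. For PRTN3 they were 3473 ± 1552 and 4746 ± 1862 TPM and the difference -0.47 ± 0.45, with an interval of -1.72 to 0.79. Adjusted p-values by limma were 0.915, 0.844 and 0.795. These 3 proteases were the only members lower in sgKAT6A within both replicate numbers, where 36.2% of all genes were. Within numbers 1 and 2, each a single library per group, the sgKAT6A to EV ratio was 0.626 and 0.502 for CTSG, 0.754 and 0.693 for PRTN3, and 0.778 and 0.928 for ELANE. The fitted direction depended on which libraries entered. Omitting a single library leaves the replicate numbers unbalanced between the groups. The gap between the numbers then enters the fitted difference. Without EV replicate 1 the difference was 0.20 for CTSG and 0.41 for ELANE, and without sgKAT6A replicate 2 it was 0.35 for CTSG, 0.29 for ELANE and 0.0035 for PRTN3. By contrast, without EV replicate 2 it was -1.86 for CTSG, -0.88 for ELANE and -0.88 for PRTN3, and without sgKAT6A replicate 1 it was -2.01 for CTSG, -0.76 for ELANE and -0.94 for PRTN3.

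AZU1 and MPO had group means closer together than their replicates. AZU1 averaged 1286 ± 118 TPM in sgKAT6A and 1351 ± 304 TPM in EV, a log2 difference of -0.056 ± 0.20 with a 95% interval of -0.61 to 0.50 (limma adjusted p = 0.936). MPO averaged 63.7 ± 20.1 and 62.3 ± 10.5 TPM, a difference of 0.0073 ± 0.28 with an interval of -0.77 to 0.79 (limma adjusted p = 0.994). Both were on opposite sides within the replicate numbers: AZU1 was at -0.19 within number 1 and 0.083 within number 2, and MPO at 0.16 and -0.14. The intervals include 0 and leave room for differences in either direction. With protein-coding genes only the AZU1 difference was 0.0060, and with ribosomal protein genes removed the MPO difference was -0.035, so the sign of neither held under every scaling tried.

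SERPINB1, BPI and CAMP were the members with both sgKAT6A libraries above both EV libraries, 3 of 8 against 14.4% of all genes. Groups that do not overlap on the higher side are by definition higher within both replicate numbers. No further member was, so these 3 of the 8 were higher within both, where 32.0% of all genes were. No member was non-overlapping on the lower side, where 23.2% of all genes were. With the table restricted to protein-coding genes and rescaled, the background shares were 19.5% above and 16.2% below, and the members' counts stayed at 3 and 0. Without EV replicate 2, or without sgKAT6A replicate 1, the number of members on the lower side was 4, where 35.7% and 44.1% of all genes were in the same fits.

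SERPINB1 was at 73.7 and 71.4 TPM in replicates 1 and 2 of EV, against 99.1 and 85.0 TPM in those of sgKAT6A. The EV libraries lay close together and the sgKAT6A libraries both above them, with means of 72.6 ± 1.62 and 92.0 ± 9.98 TPM, a ratio of 1.27. The log2 difference was 0.33 ± 0.13, with a 95% interval of -0.034 to 0.70 (limma adjusted p = 0.784). Without 1 library in turn it ran from 0.23 to 0.44.

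BPI was at 9.33 and 4.09 TPM in EV, against 10.7 and 13.4 TPM with sgKAT6A. The nearest libraries of the groups, both of number 1, were only 1.14-fold apart, and the number 2 libraries 3.27-fold. The log2 difference was 0.84 ± 0.40, with an interval of -0.26 to 1.94 (limma adjusted p = 0.784), and it ran from 0.33 to 1.35 without 1 library in turn: it was 0.33 without EV replicate 2 and 1.35 without EV replicate 1. In GENCODE 29 the spans of AL359555.1, an antisense gene on the opposite strand, and of AL359555.3, on the strand of BPI, overlap that of BPI. Overlap of their exons was not examined, and the sources used here do not say whether counting used strand. Any part of their reads in the BPI values was not tested.

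CAMP, the lowest of the 8, was at 0.906 and 1.53 TPM in EV, against 2.39 and 3.11 TPM with sgKAT6A. The means were 1.22 ± 0.443 and 2.75 ± 0.512 TPM, a ratio of 2.26, and the log2 difference was 0.76 ± 0.27 with an interval of 0.018 to 1.51 (unadjusted p = 0.0468, adjusted p = 0.784 by limma). Because 1 TPM was added to every value before the logarithm, this scale understates the change of so low a gene, and the difference was 1.14 with 0.1 TPM added and 0.32 with 5 TPM added. Read depth is unknown, so the counting error at 1 to 3 TPM could not be computed. With a minimum mean of 5 TPM, CAMP was not tested. PRG2, an eosinophil granule gene that led the eosinophil, basophil and mast cell markers, was on the same side, at 33.2 and 35.8 TPM in EV, against 50.1 and 69.0 TPM with sgKAT6A. Markers of those cells summed to 43.8 and 49.7 TPM in EV and to 64.4 and 91.1 TPM in sgKAT6A, most of it PRG2. Of the 14 markers, 5 reached a mean of 1 TPM. The groups overlapped for GATA2, TPSAB1 and TPSB2 but not for PRG2 and EPX. The part of these markers in the CAMP and BPI values was not tested.

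**Figure D3:**
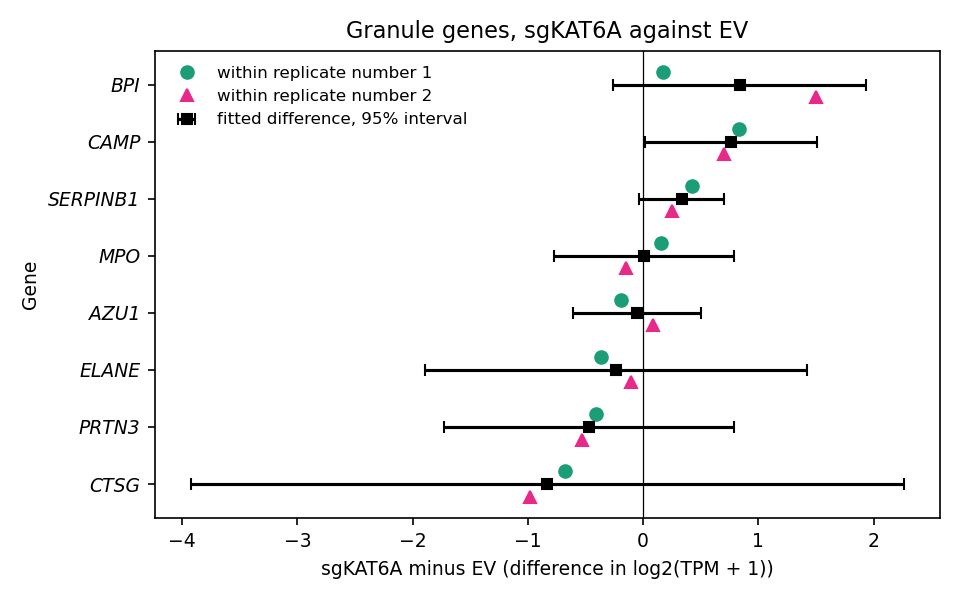
Difference between sgKAT6A and EV in log2(TPM + 1) (x axis) for each granule gene (y axis): black squares are fitted differences with 95% intervals from limma, green circles the difference within replicate number 1 and pink triangles within number 2. SERPINB1, BPI and CAMP lie to the right of 0 within both numbers, ELANE, PRTN3 and CTSG to the left within both, and the intervals of the proteases are the widest.

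Ratios between members differed across the libraries as well. The summed TPM of ELANE, CTSG and PRTN3 over that of their inhibitor SERPINB1 was 111 and 58.7 in EV replicates 1 and 2 and 62.0 and 35.5 in sgKAT6A replicates 1 and 2. This ratio was lowest in sgKAT6A replicate 2 and highest in EV replicate 1, and it overlapped between the groups. ELANE exceeded CTSG 2.29-fold and 3.88-fold in EV and 2.85-fold and 7.17-fold in sgKAT6A. AZU1 was level with ELANE in the replicate 1 libraries, at 1.05 and 1.18 times its TPM in EV and sgKAT6A, and above it in the replicate 2 libraries, at 1.87 and 2.13 times. PRTN3 exceeded AZU1 3.87-fold and 3.02-fold in EV and 3.34-fold and 1.97-fold in sgKAT6A.

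AZU1, PRTN3 and ELANE lie side by side on the plus strand of chromosome 19, at 827837 to 832018, 840999 to 848175 and 852303 to 856243 (RefSeq, GRCh38.p14), with CFD 3420 bases beyond ELANE. CTSG lies on chromosome 14 at 24573518 to 24576250, minus strand, and MPO on chromosome 17 at 58269855 to 58280935, minus strand. SERPINB1 is at 2832332 to 2841863 on chromosome 6, minus strand, BPI at 38304156 to 38337505 on chromosome 20, plus strand, and CAMP at 48223495 to 48225485 on chromosome 3, plus strand. The annotation was matched by symbol, since the table has no coordinates.

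Upstream sequence is shown for CTSG and PRTN3, proteases with lower values in both replicate 2 libraries, and for AZU1, their homologue, which was also lower there but by less. Each stretch runs 5′ to 3′ from 250 bases before the RefSeq start of the gene (GRCh38.p14) to the last base before the first exon base annotated in GENCODE 29, with matches to short motifs of granulocyte transcription factors in capitals. They cover chr14:24576261-24576500 on the minus strand for CTSG, chr19:840749-840959 on the plus strand for PRTN3 and chr19:827587-827835 on the plus strand for AZU1.
CTSG: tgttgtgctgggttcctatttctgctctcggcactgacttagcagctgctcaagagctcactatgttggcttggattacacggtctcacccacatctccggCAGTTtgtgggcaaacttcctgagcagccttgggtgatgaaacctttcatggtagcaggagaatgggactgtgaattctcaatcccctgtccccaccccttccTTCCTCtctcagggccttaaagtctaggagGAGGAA
PRTN3: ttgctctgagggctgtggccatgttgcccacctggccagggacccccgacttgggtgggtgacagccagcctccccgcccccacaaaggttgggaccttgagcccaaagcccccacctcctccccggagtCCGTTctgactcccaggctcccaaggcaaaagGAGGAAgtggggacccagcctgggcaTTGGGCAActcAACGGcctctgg
AZU1: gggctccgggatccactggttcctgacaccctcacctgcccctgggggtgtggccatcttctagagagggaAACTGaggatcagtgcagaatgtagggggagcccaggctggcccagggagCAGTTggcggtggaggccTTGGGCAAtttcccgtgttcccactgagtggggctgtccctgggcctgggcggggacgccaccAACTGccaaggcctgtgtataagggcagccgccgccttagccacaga

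Motifs were searched on both strands in the full 250 bases before the start. They were GAGGAA for PU.1, TGTGGT for RUNX, TTGCNNAA for C/EBP, AACTG and AACGG for MYB, and AAATCA for GFI1; no 2 matches overlapped in the 5 sequences searched. Promoters of 5 members were in the RefSeq table: CTSG, PRTN3, AZU1, SERPINB1 and CAMP. GAGGAA was found in 3 of them (CTSG, PRTN3 and CAMP) and in 23.6% of 35116 promoters. CTSG has it on both strands, with first bases at -46 and -16 from the start. TTGCNNAA was found in PRTN3 and AZU1, both times on the opposite strand, read as TTGGGCAA along the gene's strand, and in 9.05% of all promoters. AACTG was found in CTSG, AZU1 and SERPINB1 (34.1% of all promoters) and AACGG in PRTN3 (16.5%). TGTGGT and AAATCA, in 11.0% and 11.6% of all promoters, had no match in the 5. A match gives the letters only, not a bound site.

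Along the chromosome 19 cluster, the pattern changed from gene to gene. PLPPR3, which lies 4039 bases before AZU1, resembled PRTN3, at 243 and 158 TPM in replicates 1 and 2 of EV, against 205 and 110.2 TPM in those of sgKAT6A (log2 difference -0.38 ± 0.40, limma adjusted p = 0.805). CFD, the serine protease complement factor D, was at 369 and 264 TPM in EV, against 546 and 470.2 TPM with sgKAT6A. Both sgKAT6A libraries were above both EV libraries, with a log2 difference of 0.70 ± 0.21 (limma adjusted p = 0.784), 0.57 within number 1 and 0.83 within number 2. PRTN3 and ELANE, 11488 and 3420 bases before CFD, had differences below 0 within both numbers. CFD shared the lower values in replicate 2, by -0.48 in EV and -0.22 in sgKAT6A. Further out, PTBP1 was at -0.20, with groups that did not overlap, and MED16 (0.13) and R3HDM4 (0.14) likewise, on the higher side.

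**Figure D4:**
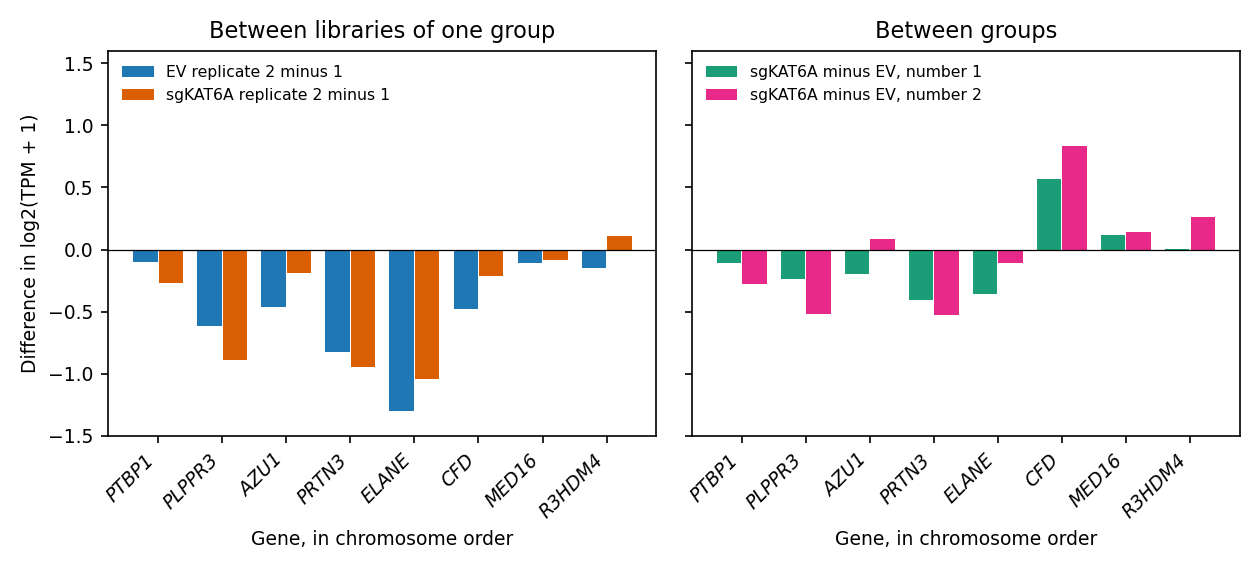
Differences in log2(TPM + 1) (y axis) for 8 neighbouring genes of chromosome 19 in chromosome order (x axis), on the left between replicate 2 and replicate 1 of EV (blue) and sgKAT6A (orange), on the right between sgKAT6A and EV within replicate numbers 1 (green) and 2 (pink); each bar compares 2 libraries. ELANE and PRTN3 have the longest bars on the left (ELANE -1.30 and -1.04), and CFD stands out on the right (0.57 and 0.83).

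Over all members, 36 different protein-coding genes were among the 3 nearest on either side, of which 21 were tested and 0 passed by limma. Both sgKAT6A libraries lay above both EV libraries for 6 of the 21 (CFD, MED16, R3HDM4, EPX, SERPINB6 and RALGAPB) and below for 4 (PTBP1, WRNIP1, DHX30 and CDC25A), against 14.4% and 23.2% of all genes. CDC25A and DHX30, before CAMP, had log2 differences of -0.57 and -0.42, opposite in sign to CAMP, and SERPINB6, a relative of SERPINB1, had 0.40. WRNIP1 beside SERPINB1 was at -0.14, and RALGAPB beside BPI at 0.16. The other tested neighbours, MKS1, SUPT4H1, SDR39U1, NQO2, RPRD1B, MAP4, ZNF589 and NME6, had overlapping groups and differences from -0.21 (MAP4) to 0.30 (NQO2). None of the 21 was more than 2-fold lower in EV replicate 2 than in EV replicate 1. Between the sgKAT6A libraries TSPOAP1 was, with a gap of -1.23. The neighbours of CTSG include other genes of the granule protease family that are silent or nearly so here: CMA1 was at 0 TPM in 3 libraries, GZMH at most at 1.56 TPM and GZMB at most at 0.414 TPM. Next to MPO, TSPOAP1 was at 88.6 and 50.2 TPM in EV, against 108 and 45.5 TPM with sgKAT6A, also low in replicate 2 of both groups. LPO and EPX, the peroxidase relatives of MPO, were at most at 2.59 and 2.38 TPM. EPX was above EV in both sgKAT6A libraries, at 1.59 and 2.38 against 0.914 and 0.994 TPM.

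The genes with the pattern most like PRTN3 were sought among 7125 other genes whose mean reached 10 TPM, by the distance between log2(TPM + 1) profiles centred over the 4 libraries. MEST, NUCB2, GCSH, DHCR7 and CCDC58 were nearest, at distances of 0.014 to 0.15. For MEST the levels were 26.8 and 14.8 TPM in EV, against 19.8 and 9.98 TPM with sgKAT6A. For CTSG no gene was near: the closest were SNORA5B, SNORA51, GAL, MIR4664 and SNORD116-24, at distances of 0.82 to 1.05. With 4 libraries such likeness is a description only.

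Of the other azurophil granule genes, 23 were tested and 0 passed by limma. Both sgKAT6A libraries were above both EV libraries for 8 of the 23 (34.8%) and below for 0, against 14.4% and 23.2% of all genes. The median log2 difference was 0.26, against -0.016 over all genes tested. For this list the median gap between the EV libraries was 0.28. PRSS57, a further serine protease of these granules, followed its homologues, at 607 and 285 TPM in EV, against 451 and 213 TPM with sgKAT6A. LYZ, encoding lysozyme, was at 7059.9 and 8068 TPM in EV, against 10975 and 9500.0 TPM with sgKAT6A (log2 difference 0.44 ± 0.13, limma adjusted p = 0.784). RNASE2, the eosinophil-derived neurotoxin, was at 577 and 505 TPM in EV, against 609.7 and 610.1 TPM with sgKAT6A. SRGN, the proteoglycan that packs granule proteins, was at 4281 and 3524 against 4608 and 2957 TPM, and CTSD, a lysosomal aspartic protease, at 226 and 486 against 357 and 696 TPM. The defensin genes DEFA3 and DEFA4 were at 0 in every library, and DEFA1B, a near-identical copy of DEFA3, was at 0.731 TPM in sgKAT6A replicate 2 alone. The 8 without overlap were LYZ, RNASE2, CD63, MAN2B1, NPC2, CTSA, HEXA and GUSB, of which all but LYZ and RNASE2 also serve ordinary lysosomes and lysosomal membranes.

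Several genes of the later specific and gelatinase granules were at or near 0. Of 26 in the table, 14 were tested, and MMP8, OLFM4 and CRISP3 were at 0 in every library. LTF, encoding lactoferrin, was at 0.0213 TPM in EV replicate 1 and at 0 elsewhere. The 14 had a median log2 difference of 0.51 but a median gap of 1.44 between the EV libraries. Only ORM1 (7.14%) had non-overlapping groups, on the higher side, against 14.4% above and 23.2% below over all genes. The 5 most abundant were CYBA, CHI3L1, MMP9, CYBB and HP, and all but CYBA were higher in replicate 2 than in replicate 1 of both groups. HP, encoding haptoglobin, was at 17.9 and 62.6 TPM in EV, against 36.5 and 62.4 TPM with sgKAT6A. CHI3L1, a chitinase-like protein, was at 89.9 and 266 TPM in EV, against 182 and 516 TPM with sgKAT6A. CYBA and CYBB encode the membrane subunits of the phagocyte oxidase, which supplies the peroxide MPO uses. CYBB was at 17.4 and 64.5 against 47.6 and 120.5 TPM, and CYBA at 1412 and 1491 against 1611 and 1469 TPM.

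Among 11 protease inhibitors tested, 0 passed by limma. Both sgKAT6A libraries were above both EV libraries for SERPINB2, SERPINB6 and SPINK2 (27.3%) and below for 0, against 14.4% and 23.2% of all genes. SERPINB6 and SPINK2 were low, with means of 2.36 and 1.53 TPM over the libraries. The median log2 difference was 0.40, against -0.016 over all genes tested. SERPINB2, an inhibitor of plasminogen activators, was at 8.76 and 13.5 TPM in EV, against 19.2 and 20.7 TPM with sgKAT6A. CSTA, a cystatin, was at 268 and 348 against 282 and 376 TPM, and CSTB at 97.5 and 144 against 102 and 185 TPM. CST7, an inhibitor of the protease-activating cathepsin C, was at 84.7 and 61.8 against 70.8 and 52.1 TPM. SERPINB8 was at 70.3 and 62.8 against 84.8 and 55.5 TPM. SERPINB9, a neighbour of SERPINB1, was at most at 0.351 TPM.

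All 35 genes of granule protein processing and packing were tested, and 0 passed by limma. Both sgKAT6A libraries were below both EV libraries for 8 (22.9%) and above for 6 (17.1%), near the shares of 23.2% and 14.4% over all genes, with a median log2 difference of -0.0031. CALR, the chaperone calreticulin that holds MPO during folding, was at 1065 and 1091 TPM in EV, against 961 and 815 TPM with sgKAT6A. LAMTOR2, an endosomal adaptor whose loss causes neutropenia, was at 199 and 202 against 189 and 159 TPM. CANX was at 190.4 and 175 against 186 and 142 TPM, and STXBP2, a partner of granule-release syntaxins, at 134 and 185 against 166 and 224 TPM.

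Of the transcription factors of granule genes, 19 were tested and 0 passed by limma. Both sgKAT6A libraries were below both EV libraries for IRF8, MYB, ELF1, GFI1, CEBPZ and GABPA, 6 of 19 (31.6%), and above for CEBPD, CUX1, ETV6 and CEBPE, 4 of 19 (21.1%), against 23.2% below and 14.4% above over all genes. The median log2 difference was -0.020. SPI1, encoding PU.1, was at 334 and 461 TPM in EV, against 379 and 519 TPM with sgKAT6A, and CEBPA at 271 and 336 against 304 and 363 TPM. Both were higher in replicate 2 of either group, opposite to ELANE, CTSG and PRTN3. MYB, which activates early myeloid promoters, was at 141 and 127 against 123 and 94.0 TPM, lower in replicate 2 of either group. CEBPD was at 212 and 220.3 against 239.9 and 342 TPM, and IRF8, a monocyte lineage factor, at 209.8 and 214 against 181 and 172 TPM. GATA1 and LEF1 were under 1 TPM throughout.

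Granulocytic receptors and surface genes had the largest replicate gap of these lists after the specific granules. Of the 20, 11 were tested, 0 passed by limma, and 0 had non-overlapping groups, against 14.4% above and 23.2% below over all genes. The median log2 difference was 0.66 and the median gap between the EV libraries 1.12. S100A8, the partner of S100A9, was at 185 and 586 TPM in EV, against 445 and 863 TPM with sgKAT6A. ITGB2, the common chain of leukocyte integrins, was at 284 and 515 against 395 and 656 TPM. CSF3R, the receptor for granulocyte colony-stimulating factor, was at 62.8 and 82.0 against 81.7 and 116 TPM, and CSF2RA at 23.0 and 47.2 against 40.8 and 67.8 TPM. FCGR3B, a marker of mature neutrophils, was at 0 in every library.

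**Figure D5:**
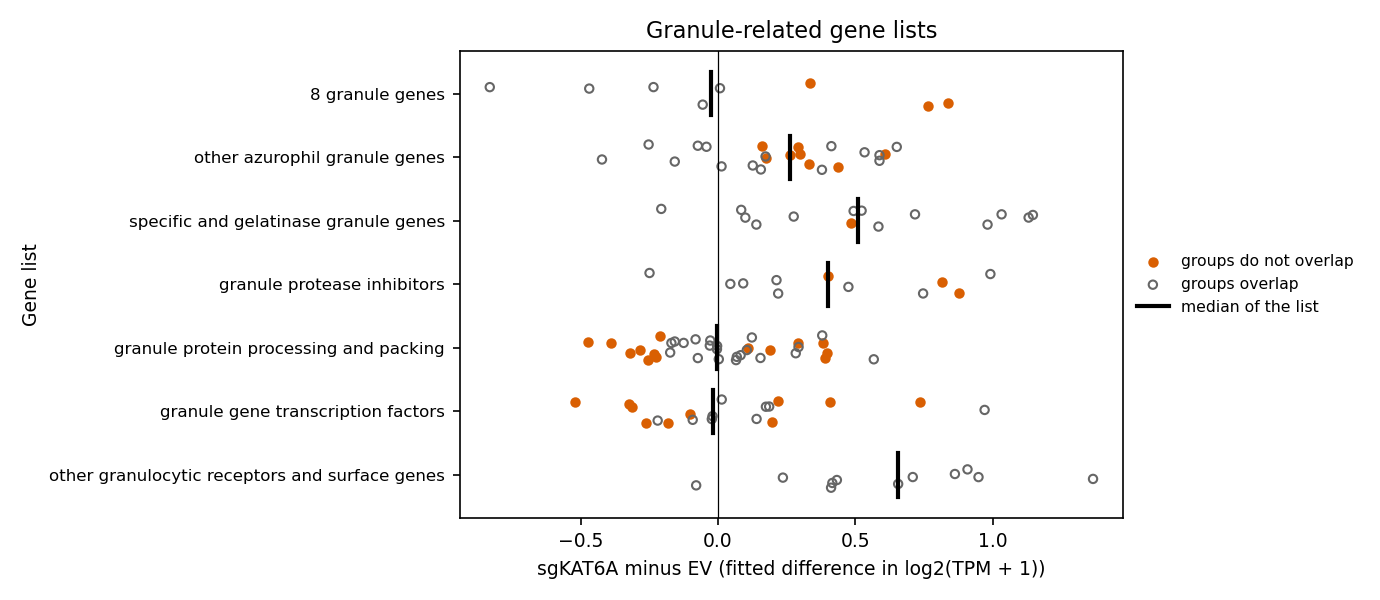
Fitted difference between sgKAT6A and EV in log2(TPM + 1) (x axis) for each tested gene of 7 granule-related lists (y axis, points spread vertically for visibility); filled orange points have groups that do not overlap, open points groups that do, and black bars are list medians. The 8 granule genes spread to both sides of 0 (median -0.024), whereas the medians of the other azurophil granule genes (0.26), the specific and gelatinase granule genes (0.51), the inhibitors (0.40) and the granulocytic receptors and surface genes (0.66) lie to the right. Those of the processing and packing genes (-0.0031) and the transcription factors (-0.020) lie near 0.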

How the data were processed

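The authors deposited a table of TPM values per gene symbol, 1 column per library, and the submitters' processing notes name Salmon and hg38; the sources used here give no version, annotation or filter. TPM keeps no read depth, so precision at low values is unknown and no count model was used. Each library summed to 1000000.

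Samples were grouped by title into 2 EV and 2 sgKAT6A libraries. Values were tested as log2(TPM + 1) where the mean reached 1 TPM, with limma 3.58.1 in R 4.3.3 (linear model, trended empirical Bayes, residual degrees of freedom 2, prior 1.98, two-sided, Benjamini-Hochberg over 12603 genes, threshold 0.05). With 2 libraries per group, a gene that did not pass was not shown to be unchanged. Fold changes on this scale understate the change of low genes. The members and lists were chosen with earlier results of these data known. Table symbols were matched to RefSeq (GRCh38.p14) and GENCODE 29. From each list the 5 genes with the highest mean TPM were named, from each marker list 1, all tested neighbours, and for the nearest patterns 5; genes named for groups that do not overlap were chosen after their values were seen. Alternatives were pseudocounts of 0.1 and 5, no filter or a mean of 5 TPM, other scalings, no trend, the replicate block, and the omission of single libraries. Figures used matplotlib 3.10.9.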

Additional observations from a re-analysis of the deposited data

How the results depend on the processing

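No member passed the adjusted threshold of 0.05 by limma under any alternative run. Without leaving out libraries, 113 of 116 recomputed values kept their side and direction. The exceptions were the AZU1 difference, 0.0060 with protein-coding genes only, the MPO difference, -0.035 with ribosomal protein genes removed, and the number of genes called with the replicate block. Part of this count was fixed in advance. Changing the filter, dropping the trend or adding the replicate block leaves the fitted log2 difference of a tested member as it was. Under the replicate block 15 genes in all passed by limma (smallest adjusted p 0.0124), none of them a member. The members' adjusted p-values by limma then ran from 0.146 (CTSG) to 0.979 (MPO), against 0.844 and 0.994 without the block. Deviations of same-numbered libraries from their group means correlated at 0.45 across genes, but the labels do not say that numbers pair cultures. Leaving out each library in turn gave log2 differences from -0.31 to 0.33 for MPO, -0.88 to 0.41 for ELANE, -2.01 to 0.35 for CTSG, -0.94 to 0.0035 for PRTN3, -0.29 to 0.18 for AZU1, 0.23 to 0.44 for SERPINB1, 0.33 to 1.35 for BPI and 0.56 to 0.97 for CAMP. In these fits, which take the lone library to vary like the other group, 0 genes were called, and 0 to 4 of the 8 members were lower and 3 to 4 higher without overlap, against 33.1% to 44.1% lower and 19.5% to 39.2% higher over all genes. By value, the reversed differences were 0.41 (ELANE), 0.20 (CTSG) and 0.18 (AZU1) without EV replicate 1, and -0.16 (MPO) without EV replicate 2. They were -0.31 (MPO) without sgKAT6A replicate 1, and 0.29 (ELANE), 0.35 (CTSG), 0.0035 (PRTN3) and 0.038 (AZU1) without sgKAT6A replicate 2. Fits without a library set unequal replicate numbers against each other, so the gaps between libraries given above enter these differences. The cause was not tested further.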
